A study of Homo sapiens with 6 samples.

Results

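OVCAR3 cells transfected with the COL11A1 gene were compared, gene by gene, with OVCAR3 cells transfected with a gene for GFP, the green fluorescent protein, which stood as the overexpression control. OVCAR3 is an established human ovarian adenocarcinoma line, and COL11A1 encodes the alpha 1 chain of type XI collagen, a minor component of collagen fibrils. Both cultures were grown in RPMI medium with serum and carried no other labelled change; whether either was a clone or a pool, and how long after transfection RNA was taken, was not given in the sources used here. The remaining 4 of the 6 libraries in the series came from A2780, another ovarian cancer line. They held a scrambled shRNA (A2780 scrambled shRNA), an shRNA against COL11A1 (A2780-shCOL11A1), a COL11A1 overexpression culture (A2780-COL11A1) and a cisplatin-resistant derivative, A2780CIS.

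Every gene whose FPKM (fragments mapped to a gene, divided by its transcript length and by the mapped fragments of the library) averaged at least 1 over the 2 OVCAR3 libraries was taken, which gave 12231 of the 23145 genes kept from the table. For each gene the difference is log2(FPKM + 1) in OVCAR3-COL11A1 minus log2(FPKM + 1) in OVCAR3-GFP, and a difference of 1 or more in size is called 2-fold here. This scale understates ratios of genes near 1 FPKM. Where a pair of FPKM values is given with no library named, OVCAR3-GFP comes before OVCAR3-COL11A1. The gene just inside the minimum was DCDC1, at 0.583 FPKM in OVCAR3-GFP and 1.42 in OVCAR3-COL11A1, and the locus just outside was LOC100506321, at 1.21 and 0.788. Each arm was 1 library, so no spread between replicates exists, nothing was tested, and "higher" and "lower" describe these libraries only.

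Several of the gene groups described here belong to well-known circuits. NF-kB is a family of transcription factors held in the cytoplasm by inhibitors; inflammatory signals free it, it switches on cytokine and chemokine genes, and it also switches on its own inhibitors, so that the response shuts itself off. SREBP factors switch on cholesterol and fatty acid synthesis when membrane sterol is low, and NRF2 switches on antioxidant genes when its inhibitor KEAP1 is disabled. Claudins are the membrane proteins that seal tight junctions between epithelial cells, and claudin 3 and claudin 4 are abundant in many epithelial ovarian cancers.

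COL11A1 (chromosome 1, 103342022 to 103574052; positions are those in the table, GRCh37) stood at 0.0258 FPKM in OVCAR3-GFP and 1.67 FPKM in OVCAR3-COL11A1, higher in the library labelled with it. Its mean over both libraries was below 1 FPKM, so it is not itself among the 12231 genes. All 12 epithelial ovarian markers examined (among them PAX8, WT1, EPCAM and KRT7) were at 1 FPKM or more in both libraries. Low FPKM values step by whole fragments, and the size of these steps put OVCAR3-COL11A1 at 0.439 of the depth of OVCAR3-GFP, the lowest of the 6 libraries, so its low values are the less certain ones. Summed FPKM over the genes kept was 490430 in OVCAR3-GFP and 423289 in OVCAR3-COL11A1, and the 100 most abundant genes of each library held 31.5% and 24.2% of it. The 10 fibroblast markers summed to 4.48 FPKM in OVCAR3-GFP and 11.2 in OVCAR3-COL11A1, leukocyte markers to 4.20 and 4.25, and endothelial markers to 0.693 and 0.772. Of the fibroblast markers only 1, COL1A1, was at 1 FPKM or more in both libraries.

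The OVCAR3 difference went with the base composition of the transcripts. In the quintile of genes with the lowest GC content (up to 40.7% in the longest transcript) the median difference was 0.44, and it was 0.26, 0.06, -0.15 and -0.25 in the quintiles that followed. Of the lowest quintile 16.2% were 2-fold higher and 0.796% 2-fold lower, against 2.72% and 8.93% of the highest. The same medians ran from 0.01 to -0.16 between A2780-COL11A1 and A2780 scrambled shRNA and from 0.09 to -0.16 between A2780CIS and that control. By transcript length the OVCAR3 medians ran from -0.07 in the shortest quintile to 0.22 in the longest. The part of this trend in the results was not tested; most lists below are also given after the trend over GC content and length was taken out.

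**Figure D1:**
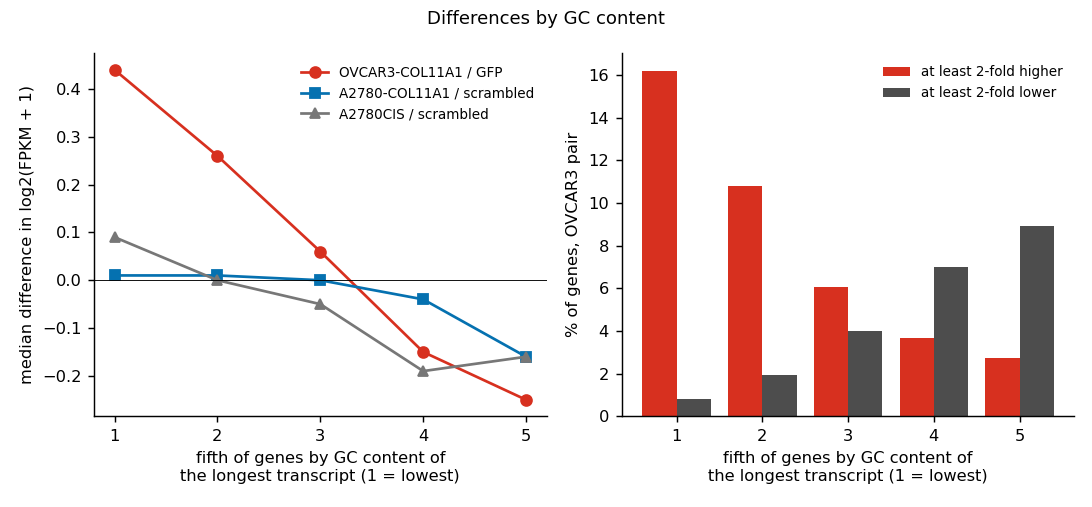
Left, median difference in log2(FPKM + 1) for quintiles of genes by GC content of the longest transcript, in 3 pairs of libraries (1 library per arm; the A2780 pairs share a control). Right, percent of genes in each quintile that were at least 2-fold higher or lower in OVCAR3-COL11A1 than in OVCAR3-GFP. The OVCAR3 line falls from 0.44 to -0.25, and the share of genes 2-fold higher falls from 16.2% to 2.72%.

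Over all 12231 genes, 955 (7.81%) were 2-fold or more above OVCAR3-GFP in OVCAR3-COL11A1 and 550 (4.50%) 2-fold or more below it. Counts of 2-fold genes in the lists below are to be read beside these shares. The median difference of all genes was 0.08, with the middle of the distribution between -0.34 and 0.49, and 59 genes differed upward and 46 downward by 4-fold or more. The balance of the counts depended on the scaling. Of the genes past 2-fold, 63.5% were on the higher side with the values as deposited, 57.4% after median scaling, 52.2% after quantile normalization and 46.4% after upper-quartile scaling, which gave 680 higher and 785 lower and moved the median of all genes from 0.08 to -0.05. Abundant genes leaned lower: the median was -0.28 among genes of at least 100 FPKM, where 8.74% were 2-fold lower, against 0.10 among those from 1 to 5 FPKM.

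Single genes were ranked among those of at least 5 FPKM in the higher library, with small RNAs, pseudogenes, antisense genes, unnamed loci and overlapping loci set aside; the short RNAs VTRNA1-1, SNAR-G1 and SNORD116-4 differed more, by 5.92, -5.33 and -4.76. Chemokine genes, cytokine genes and zinc finger genes were among the 15 highest. After CXCL3 and IL8 came ZFP30 and ZNF569, which encode zinc finger proteins, at 11.3 and 5.25 FPKM in OVCAR3-GFP and at 113 and 52.7 in OVCAR3-COL11A1. SNAPC1, a subunit of a complex that activates small nuclear RNA genes, stood at 10.7 and 97.0 FPKM, a difference of 3.07. The rest of the 15, apart from CXCL1 and IL6, were CYP1A1, IL12A, LINC00693, SLC16A9, the neurotrophin receptor gene NGFR, ZNF570, the transcriptional coactivator gene PPARGC1A and SMAD9, a mediator of BMP signalling. At the other end lay claudin genes, HMOX1, tubulin and sterol genes, and in addition TMEM100, THEMIS2, CILP, DOC2B and the protease gene ADAMTS15. TMEM100 was at 39.9 FPKM in OVCAR3-GFP and 4.48 in OVCAR3-COL11A1, and CILP, a matrix protein gene, at 9.11 and 0.800.

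**Figure D2:**
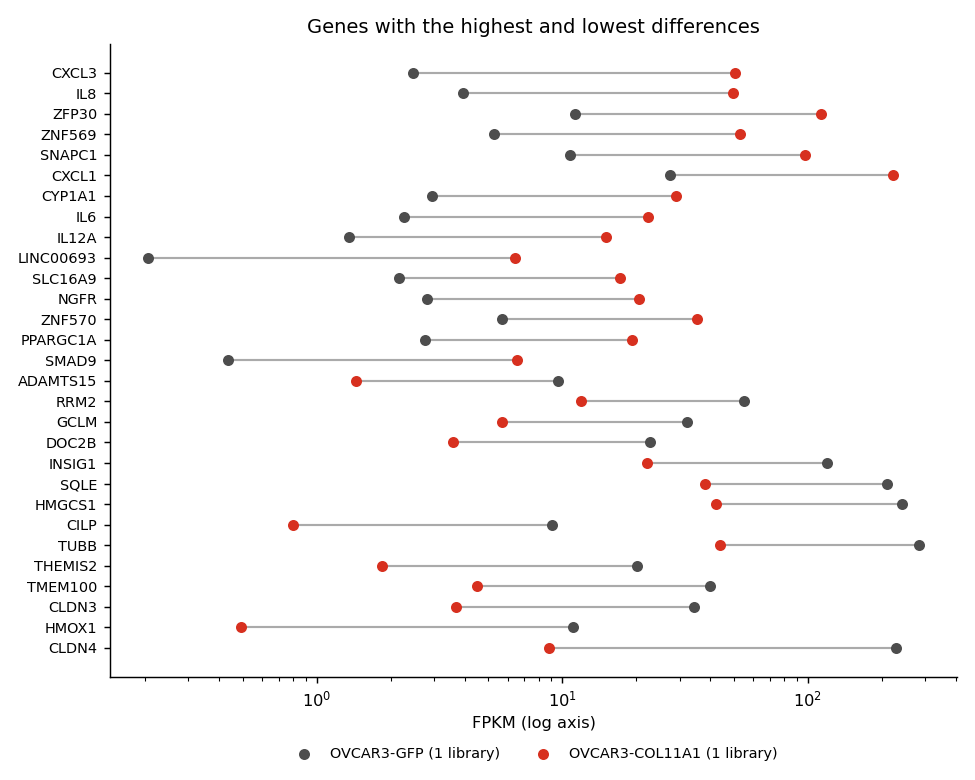
FPKM (log axis) of genes among the 15 highest and 15 lowest differences, small RNAs and overlapping loci set aside, 1 point per library, with a line joining the OVCAR3-GFP and OVCAR3-COL11A1 values of a gene. CLDN4 runs from 228 down to 8.84 FPKM and CXCL1 from 27.3 up to 222 FPKM.

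Many genes of the NF-kB circuit were higher in OVCAR3-COL11A1. Of 26 listed subunits, kinases, adaptors and feedback inhibitors, 25 were measured, 13 were at least 2-fold higher, 1 was lower and 11 lay between, with a median difference of 1.06 (1.10 with the GC and length trend taken out). The promoters of the 4 members of the NF-kB and chemokine lists with the highest differences are shown here because NF-kB is known to act on these genes through a short DNA motif near their start. Each line gives the 150 bases before the annotated start of the gene, 5′ to 3′ on the gene's strand, from the RefSeq promoter set on GRCh38.p14, with matches to GGNNTTTCC on either strand in capitals.
TNFAIP3 (chr6:137867109-137867258, plus strand): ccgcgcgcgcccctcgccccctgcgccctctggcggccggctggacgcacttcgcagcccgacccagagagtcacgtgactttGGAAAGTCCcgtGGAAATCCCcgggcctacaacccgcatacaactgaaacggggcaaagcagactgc
CXCL3 (chr4:74038690-74038839, minus strand): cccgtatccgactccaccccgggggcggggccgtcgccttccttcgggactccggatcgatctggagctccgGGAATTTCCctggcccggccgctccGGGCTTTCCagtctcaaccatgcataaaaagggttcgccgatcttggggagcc
IL8, now named CXCL8 (chr4:73740419-73740568, plus strand): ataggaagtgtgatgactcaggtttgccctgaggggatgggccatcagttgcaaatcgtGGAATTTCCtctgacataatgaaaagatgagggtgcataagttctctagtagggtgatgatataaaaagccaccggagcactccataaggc
CXCL1 (chr4:73869243-73869392, plus strand): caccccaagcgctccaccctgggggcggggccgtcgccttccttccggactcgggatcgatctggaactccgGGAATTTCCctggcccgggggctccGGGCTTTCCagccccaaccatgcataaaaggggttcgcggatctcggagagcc

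The TNFAIP3 promoter held 2 matches, whose first bases lay 67 and 55 bases before the start. CXCL3 and CXCL1, neighbouring copies of one ancestral gene, each held 2 matches at the same places, 78 and 53 bases before the start, with the same letters, GGAATTTCC and GGGCTTTCC. IL8 held 1 match, 91 bases before its start and again GGAATTTCC. Over the whole window of 250 bases before and 50 after the start, the motif was found in 6.26% of all 27305 promoters, in 6.75% of those of the genes measured, in 10.5% of those of genes 2-fold higher and in 5.54% of those of genes 2-fold lower. On the NF-kB list 8 of 22 promoters held it, and on the chemokine list 7 of 8. Of those 7 chemokine genes, CXCL10, CXCL6 and CCL20 reached the minimum level only through OVCAR3-COL11A1. So did TNIP3 (0.271 and 2.59 FPKM) among the 8 of the NF-kB list, and both shares are read with that in mind. The chemokine promoter without a match was that of CCL28, and 1 gene gives no reading of how motif and direction go together. A match is a description of letters and not of binding.

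Among the subunits, NFKB1, the gene of p105 and p50 (chromosome 4, 103422485 to 103538459), stood at 7.69 FPKM in OVCAR3-GFP and 39.4 in OVCAR3-COL11A1, a difference of 2.22. NFKB2, the gene of p100 and p52 in the non-canonical branch, stood at 49.3 and 192 FPKM (1.94). REL was at 2.55 and 12.6 FPKM (1.94) and RELB, the partner of p52, at 12.2 and 43.1 (1.74). All 4 were higher in OVCAR3-COL11A1. RELA, the gene of the p65 subunit and the exception, was at 49.5 and 49.4 FPKM. NFKB1, NFKB2, REL and RELB are themselves known targets of NF-kB, and RELA is not usually counted as one.

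The inhibitors were divided. TNFAIP3, the gene of the ubiquitin-editing enzyme A20 (chromosome 6, 138188324 to 138204451), had 4.64 FPKM in OVCAR3-GFP and 88.3 in OVCAR3-COL11A1, the highest difference on the list at 3.99; its locus overlaps LOC100130476, whose reads cannot be fully told apart from it. NFKBIA, which encodes the inhibitor IkB-alpha, stood at 65.7 and 265 FPKM, a 4.03-fold ratio. The inhibitor gene lower by 2-fold was TNIP2, which encodes a partner of A20, at 31.2 and 14.5 FPKM (-1.05). It was singled out after its values were seen. With the GC and length trend taken out, 13 genes of the list were 2-fold higher and 0 lower. Likewise singled out were TNIP3 (1.50) and CYLD (1.00), which were higher. TNIP3 reached the minimum level only through OVCAR3-COL11A1. Inside the 2-fold mark and singled out in the same way were NFKBIB, which encodes IkB-beta (0.84), NFKBID (0.21), TNIP1 (0.09) and the RNase gene ZC3H12A (-0.15). IKBKB and IKBKG, genes of the upstream kinase complex and singled out too, were at 10.1 and 7.13 FPKM and at 11.4 and 10.7 FPKM, inside the 2-fold mark. The other kinase genes of the list were not alike: IKBKE was 2-fold higher (1.36), while CHUK (0.57) and MAP3K14 (-0.20) lay inside the mark.

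Chemokine genes, whose products draw neutrophils and other leukocytes, had the highest list median at the settings used here. It was not the highest with no filter, where it was 0.79 against 1.25 for clock genes, or with a pseudocount of 5 FPKM, where it was 0.56 against 1.13. Of 19 listed, 11 reached the minimum level, 8 of these were at least 2-fold higher and 1 was lower, with a median of 1.56 (1.47 with the trend taken out), against 0.08 for all genes. The 8 that did not reach it, CXCL5, CXCL12 and CCL5 among them, are not covered by these counts. A gene near 0 in OVCAR3-GFP could pass the minimum only by being high in OVCAR3-COL11A1, so the count is read with that in mind.

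CXCL3 (chromosome 4, 74902311 to 74904490) stood at 2.46 FPKM in OVCAR3-GFP and 50.4 in OVCAR3-COL11A1, a 20.5-fold ratio. IL8 stood at 3.94 and 49.4 FPKM (3.35), CXCL1 at 27.3 and 222 (2.98) and CXCL2 at 2.75 and 16.8 (2.24). All 4 encode ligands of the neutrophil receptor CXCR2, and CXCL1, CXCL2 and CXCL3 are close paralogs between which reads of 75 bases can be misassigned. CXCL10, a ligand of the T-cell receptor CXCR3, was at 0.0590 and 2.29 FPKM; its locus lies inside ART3. CXCL6, CCL20 and CCL2 were between 0.110 and 0.282 FPKM in OVCAR3-GFP and between 2.25 and 2.77 in OVCAR3-COL11A1. CCL28, an epithelial chemokine, went the other way, at 7.31 and 2.67 FPKM. In A2780 libraries CXCL3 was at the lowest value of the table, 0.001 FPKM, in all 4, and CXCL1 reached at most 0.223 FPKM, so the A2780 pairs carry almost no reading of these genes.

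**Figure D3:**
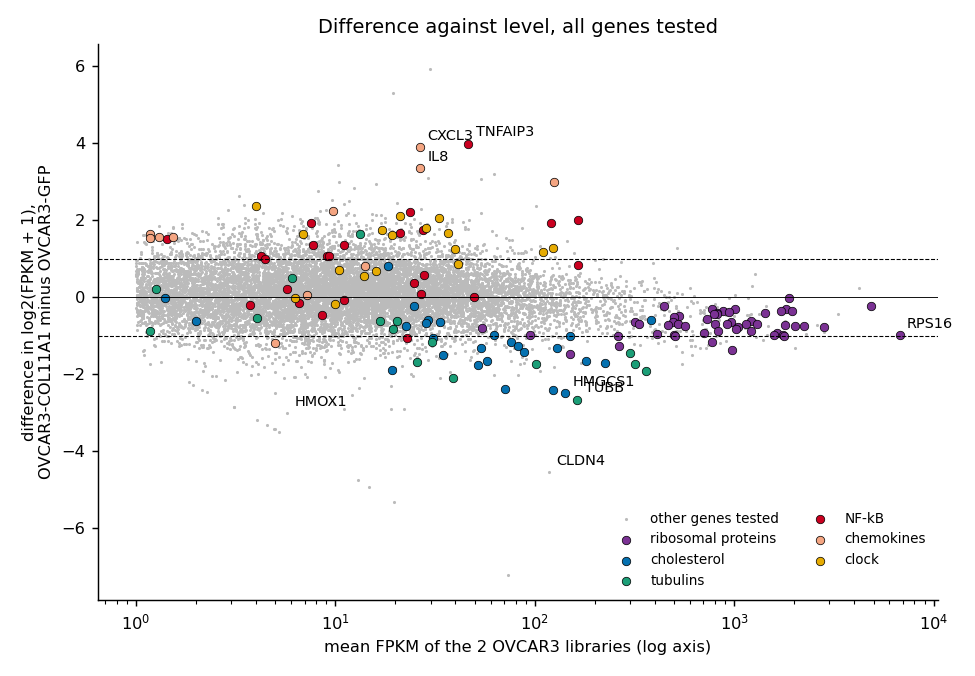
Difference in log2(FPKM + 1) between OVCAR3-COL11A1 and OVCAR3-GFP against the mean FPKM of both libraries (log axis), 1 point per gene, with 6 gene lists in colour and dashed lines at 2-fold. Most NF-kB, chemokine and clock genes lie above the cloud, most cholesterol and tubulin genes below it, and the ribosomal protein genes lie at the abundant end between -0.01 and -1.47.

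Cytokine and acute-response genes were divided. Of 30 measured, 10 were 2-fold higher and 2 lower, with a median of 0.42 (0.63 with the trend taken out). IL6, a cytokine that signals through STAT3, stood at 2.26 FPKM in OVCAR3-GFP and 22.4 in OVCAR3-COL11A1 (2.84). PTX3, a soluble pattern-recognition protein, stood at 1.55 and 19.3 FPKM (2.99), within the locus of VEPH1. ICAM1, an adhesion receptor for leukocytes, was at 3.97 and 15.8 FPKM, and IER3 at 18.6 and 88.5. These 4 genes were higher in OVCAR3-COL11A1, while TNFRSF1A, which encodes the main receptor for TNF, was at 31.3 and 10.2 FPKM (-1.53), and the other lower gene was LCN2, an iron-binding acute-phase protein, at 13.1 and 4.84. BIRC3, an NF-kB target that encodes the ubiquitin ligase cIAP2, stood at 0.134 and 2.05 FPKM and was the only 1 of the 7 inhibitor-of-apoptosis genes and antagonists measured to pass 2-fold (median 0.45, and 0.32 with the trend taken out). BIRC3 reached the minimum level only through OVCAR3-COL11A1; its difference of 1.43 was 0.46 with a pseudocount of 5 FPKM, and it was below the minimum with upper-quartile scaling or a minimum of 5 FPKM. Its neighbour BIRC2 was at 10.9 and 18.9 FPKM, XIAP at 11.6 and 16.2.

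Genes that report on growth-factor, Hippo and TGF-beta signalling leaned higher. Of 20 feedback regulators and outputs of the ERK kinase pathway, 7 were 2-fold higher and 0 lower (median 0.64, and 0.76 with the trend taken out). DUSP6, the phosphatase that switches off ERK, stood at 6.69 FPKM in OVCAR3-GFP and 28.7 in OVCAR3-COL11A1 (1.95). SPRY4, a Sprouty inhibitor of receptor signalling, stood at 1.10 and 6.85 FPKM (1.90), and PHLDA1 at 0.917 and 7.74 (2.19). The Hippo pathway restrains the coactivators YAP and TAZ, and of 17 of its factors and response genes 8 were 2-fold higher and 0 lower (median 0.78, and 0.91 with the trend taken out). AJUBA, an adaptor that inhibits LATS kinases, was at 14.6 and 62.4 FPKM (2.02), the YAP targets ANKRD1 and CYR61 at 4.66 and 20.6 and at 38.4 and 135, and the DNA-binding partner TEAD1 at 20.3 and 72.0. Members stood on both sides of the pathway, since LATS1, the kinase that inactivates YAP, was also higher (10.0 and 25.6 FPKM). CTGF, a standard YAP target singled out after its values were seen, was at 36.5 and 33.5 FPKM. Among 21 TGF-beta and BMP response genes 4 were 2-fold higher and 0 lower (median 0.32, and 0.62 with the trend taken out). Among them were the inhibitory SMAD7 at 7.73 and 35.6 FPKM and SMAD6 at 12.4 and 43.9, and SKIL at 15.9 and 36.7.

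Immediate early genes, which answer growth factors within minutes, did not move as a block. Of 26 measured, 6 were 2-fold higher and 1 lower, with a median of 0.23 (0.46 with the trend taken out). KLF10 stood at 32.4 and 171 FPKM (2.36), NR4A3 at 0.485 and 3.52, KLF6 at 11.6 and 30.3 and ATF3 at 13.8 and 34.4. The lower member, EGR1, was at 24.5 and 10.3 FPKM (-1.17), and FOS, named after its values were seen, was at 14.8 and 15.1. The AP-1 motif TGANTCA, searched on both strands, stood in 5.58% of the promoters of genes 2-fold higher, 6.02% of those 2-fold lower, 4.35% of those of the genes measured and 7.76% of all promoters.

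Circadian clock genes were mostly higher. The clock runs as a loop in which the proteins of CLOCK and ARNTL switch on PER, CRY and NR1D genes, whose products then repress it. Of 17 clock genes measured, 11 were 2-fold higher and 0 lower, with a median of 1.27 (1.34 with the trend taken out). PER1 stood at 7.22 FPKM in OVCAR3-GFP and 34.7 in OVCAR3-COL11A1 (2.12). NR1D1, which encodes REV-ERB-alpha and overlaps THRA, stood at 12.1 and 53.9 FPKM (2.07), and HLF, a PAR-domain output factor, at 0.610 and 7.36 (2.38). Activator and repressor genes were high together: ARNTL was at 12.1 and 44.6 FPKM, ARNTL2 at 7.34 and 27.1, and CRY1 at 17.0 and 56.0. RORA and CRY2, singled out after their values were seen, were at 6.36 and 6.22 FPKM and at 10.6 and 9.28. The E-box CACGTG, the site CLOCK and ARNTL bind, was found in 4 of 17 clock promoters (23.5%), against 10.3% of the promoters of all genes measured; this motif was added after the values were seen. The time of day at which each culture was collected was not given in the sources used here.

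Zinc finger genes made up the most numerous class among the higher genes of those examined. This class was formed by gene name after the values were seen, and holds the genes whose names begin with ZNF, ZFP, ZIM or ZSCAN; most encode repressors that bind DNA, many of them with a KRAB domain. They made up 3.56% of the genes measured and 13.9% of those 2-fold higher: 133 of 435 were higher and 1, ZSCAN31, was lower. On chromosome 19, where this family lies in clusters, 79 of 199 were higher and 0 lower, with a median of 0.79 (0.66 with the trend taken out), and on the other chromosomes 54 of 236 were higher (median 0.58, and 0.51 with the trend taken out). ZNF461 stood at 7.72 and 40.8 FPKM, ZNF699 at 3.61 and 19.1 and, on other chromosomes, ZNF354A at 5.30 and 26.6 and ZNF770 at 15.2 and 61.6. These transcripts are poor in GC, with a median of 42.4% on chromosome 19. Among genes of at most 40.7% GC, 39.0% of the 123 zinc finger genes were 2-fold higher (median 0.84), against 14.9% of the 2263 other genes (median 0.42). Zinc finger genes share long stretches of like sequence, so their single values are uncertain.

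Sterol synthesis genes lay in the other direction. Of 27 genes of cholesterol synthesis and uptake, 26 were measured, 16 were at least 2-fold lower in OVCAR3-COL11A1 and 0 higher, with a median of -1.22 (-1.16 with the trend taken out) against 0.08 for all genes. Members of the pathway from its first committed steps to its end were among them. HMGCS1, which makes HMG-CoA (chromosome 5, 43287571 to 43313614), stood at 241 FPKM in OVCAR3-GFP and 42.3 in OVCAR3-COL11A1 (-2.49). SQLE, squalene epoxidase, stood at 209 and 38.2 FPKM (-2.42), and INSIG1, the sterol sensor that holds SREBP in the endoplasmic reticulum, at 119.8 and 22.1 (-2.39). MVD, a mevalonate pathway decarboxylase, was at 30.7 and 7.54 FPKM, and MSMO1, a sterol oxidase, at 344 and 105. MYLIP, a ubiquitin ligase gene and a target of the sterol receptors LXR, was at 13.2 and 23.7 FPKM (0.80), the highest on the list and within the 2-fold mark; it was singled out after its values were seen. A form of the sterol regulatory element, TCACNCCAC, was found in 1 of 20 of these promoters and in 1.15% of all promoters, so the window searched gives no reading of it.

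Fatty acid synthesis, the other branch that SREBP factors drive, was lower as well. Of 16 genes measured, 10 were 2-fold lower and 0 higher (median -1.15, and -1.05 with the trend taken out). FASN, fatty acid synthase, stood at 129 FPKM in OVCAR3-GFP and 43.4 in OVCAR3-COL11A1 (-1.55). ACLY, which supplies cytosolic acetyl-CoA, stood at 39.2 and 13.4 FPKM, ACSS2 at 27.3 and 9.46, SCD, the main desaturase, at 897 and 370.3, and the regulator gene SREBF1 at 31.9 and 12.3. All of them were lower. THRSP was at 9.79 FPKM in OVCAR3-GFP and listed at 0.001 in OVCAR3-COL11A1, but its locus overlaps NDUFC2 and its single value is uncertain. Genes of the opposite process, beta-oxidation, did not lean to a side: 2 of 32 (6.25%) were 2-fold higher, against 7.81% of all genes, and 0 lower. Their median was -0.10 (-0.07 with the trend taken out). The 2 were PPARGC1A (2.76 and 19.2 FPKM) and EHHADH (4.82 and 10.7), which overlaps an antisense gene. CPT1A, which admits long-chain fatty acids to mitochondria, was at 60.3 and 36.7 FPKM.

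NRF2 targets were lower too. Of 19 measured, 12 were 2-fold lower and 0 higher (median -1.04). With the trend taken out 7 were lower and the median was -0.86. HMOX1, heme oxygenase 1 (chromosome 22, 35777059 to 35790207), stood at 11 FPKM in OVCAR3-GFP and 0.492 in OVCAR3-COL11A1, a 22.4-fold lower value. GCLM, a subunit of the enzyme that starts glutathione synthesis, stood at 32.1 and 5.70 FPKM (-2.30), and NQO1, a quinone reductase, at 33.8 and 9.15 (-1.78). SRXN1 was at 35.9 and 11.4 FPKM, OSGIN1 at 15.3 and 3.53, and TXNRD1, thioredoxin reductase, at 192 and 72.9. The transcript of NRF2 itself, NFE2L2, singled out after its values were seen, was on the other side, at 37.3 and 70.6 FPKM (0.90), and that of its inhibitor KEAP1 was at 43.4 and 18.9 (-1.16). FTH1, ferritin heavy chain, was at 3798 and 2814 FPKM (-0.43).

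**Figure D4:**
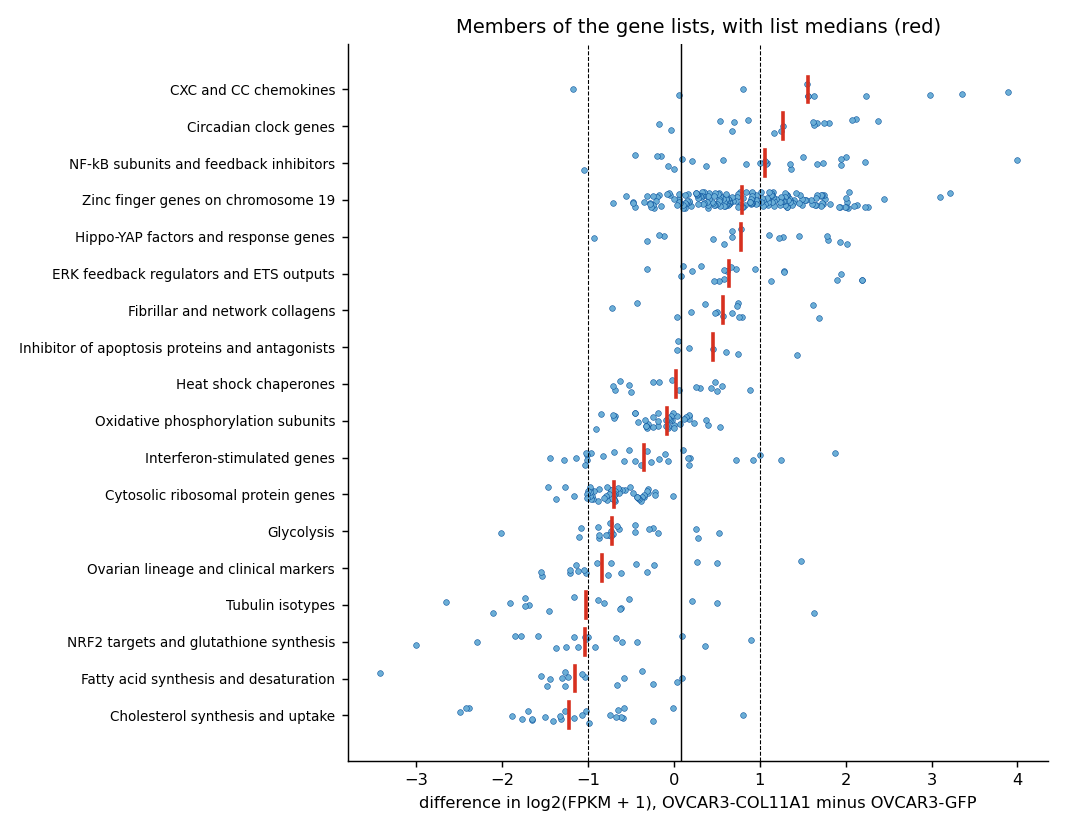
Difference in log2(FPKM + 1) for each measured member of 18 gene lists (points), with the list median (red bar), the median of all genes (solid line, 0.08) and the 2-fold marks (dashed lines). Medians run from 1.56 for chemokines to -1.22 for cholesterol synthesis, with heat shock chaperones (0.02) and oxidative phosphorylation (-0.08) near that of all genes.

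A claudin gene had the lowest difference of the ranked genes, short RNAs set aside. CLDN4, claudin 4 (chromosome 7, 73245192 to 73247015), stood at 228 FPKM in OVCAR3-GFP and 8.84 in OVCAR3-COL11A1, a 25.8-fold lower value and a difference of -4.54. In a bulk library, fewer cells carrying a transcript and less of it per cell cannot be told apart. CLDN3 (chromosome 7, 73183326 to 73184600), close to it on the chromosome, stood at 34.3 and 3.69 FPKM (-2.91), and CLDN7, whose locus overlaps ELP5, at 60.1 and 14.9 (-1.94). These 3 were lower, but the family did not share a direction, since CLDN1 was at 40.4 and 114 FPKM (1.48) and CLDN16 at 39.9 and 85.2 (1.07). Over 21 claudin and tight junction genes the median was -0.12 (-0.22 with the trend taken out). CDH1, E-cadherin, stood at 48.2 and 16 FPKM (-1.53), EPCAM at 206 and 136, and the epithelial transcription factor gene EHF at 41.9 and 15.3 (-1.40). FN1, fibronectin, was at 0.603 and 3.97 FPKM (1.63). VIM, vimentin, was lower in OVCAR3-COL11A1 too, at 6.07 and 3.25 FPKM. Keratins of simple epithelium, KRT8, KRT18 and KRT19, were at 1247, 726 and 197 FPKM in OVCAR3-GFP and at 565, 297 and 79.6 in OVCAR3-COL11A1. The loci of KRT8 and KRT18 overlap each other. Keratins did not share a direction, since KRT23 (0.91) and KRT80 (0.93) were higher. Of 7 keratin and other filament genes measured, 3 were above their OVCAR3-GFP level and 4 below. Their median was -0.73, or 0.13 with overlapping loci left out.

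Ovarian lineage and clinical markers leaned lower. Of 18 measured, 8 were 2-fold lower and 1 higher, with a median of -0.83. With the trend taken out 3 were lower and 1 higher, with a median of -0.58. EMX2, a homeobox gene of the developing reproductive tract, stood at 30.9 and 9.93 FPKM, FOLR1, the folate receptor targeted in ovarian cancer, at 6.20 and 1.47, and KLK6, a kallikrein protease, at 35.1 and 14.6. MECOM, a zinc finger transcription factor amplified in some ovarian cancers, was the higher one, at 8.29 and 24.9 FPKM (1.48). MSLN, mesothelin, was at 70.6 and 51.8 FPKM and the CA125 gene MUC16 at 2.06 and 1.45, both named from the identity markers and both within the 2-fold mark. Over the 12 identity markers, 6 were 2-fold lower and 0 higher (median -0.93), or 3 and 0 with the trend taken out (median -0.68), and 11 of 12 were below their OVCAR3-GFP level.

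Tubulin genes, a list added after the values were seen, were lower in 8 of 16 isotypes and higher in 1, with a median of -1.03 (-0.67 with the trend taken out). TUBB stood at 283 and 43.9 FPKM (-2.66), TUBB3 at 64.0 and 14.1 (-2.11), TUBA1B at 569 and 151 (-1.91) and TUBA1A at 156 and 45.9 (-1.74). All are subunits of the microtubule and close paralogs, so reads may be divided among them, but the sum over the list also went from 2173 FPKM to 666. TUBE1, the higher one, encodes the centriolar epsilon-tubulin and was at 5.97 and 20.6 FPKM.

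Most cell cycle genes lay within 2-fold. Of 40 cell cycle genes 0 were 2-fold higher and 7 lower, with a median of -0.15. With the trend taken out 4 were lower and the median was -0.18. RRM2 and TYMS, which supply deoxynucleotides, stood at 55.0 and 11.9 FPKM (-2.11) and at 25.9 and 8.79 (-1.46). CCNE2 was at 5.15 and 1.41 FPKM, PCNA, the replication clamp, at 69.3 and 31.2, MCM4, part of the replicative helicase, at 45.1 and 20.6, and AURKB, a mitotic kinase, at 16.6 and 6.41. The proliferation marker MKI67, singled out after its values were seen, was at 15.8 and 17.0 FPKM (0.10). Loci of TYMS, CCNE2 and PCNA overlap other genes. CDK6, a kinase of early G1, was higher, at 3.52 and 19.7 FPKM (2.19).

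Ribosomal protein genes were lower in small steps. All 53 listed were below their OVCAR3-GFP level, 7 of them by 2-fold, with a median of -0.70 (-0.55 with the trend taken out, -0.18 with quantile normalization) and a range from -1.47 to -0.01. Their sum was 75997 FPKM in OVCAR3-GFP and 48030.0 in OVCAR3-COL11A1, or 15.5% and 11.3% of all FPKM of the genes kept. RPL13A stood at 221 and 79.4 FPKM, RPL7A at 1399 and 538 and RPL28 at 375 and 155, and RPL13A and RPL7A overlap small nucleolar RNA genes. Translation factors with the same type of 5′ end, a list added afterwards, had a median of -0.62 (-0.48 with the trend taken out, -0.20 with quantile normalization), with EEF1A1 at 1731 and 849 FPKM. Ribosomal protein genes have many processed pseudogenes, so single values are uncertain. Abundant genes as a whole were lower, as given above, and whether this class differs beyond its level was not tested.

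Glycolysis genes were also mostly below their OVCAR3-GFP level, with 3 of 22 2-fold lower, 0 higher and a median of -0.72. With the trend taken out 1 was lower and the median was -0.44. SLC16A3, the lactate exporter MCT4, stood at 6.68 and 0.903 FPKM (-2.01), ENO2 at 4.60 and 1.60 and PFKFB4 at 11.6 and 4.94. Hypoxia response genes, with which glycolysis often moves, had a median of 0.02 but were divided. Of 19 measured, 5 (26.3%) were 2-fold higher and 1 (5.26%) lower, against 7.81% and 4.50% of all genes. With the trend taken out 3 were higher and 2 lower. ADM, adrenomedullin, stood at 12.5 and 43.4 FPKM and HIF1A at 81.8 and 171, whereas P4HA2 was at 139 and 53.9. The median of the hypoxia list changed sign after each of the 3 other scalings (-0.06 with median scaling, -0.03 with quantile normalization and -0.14 with upper-quartile scaling).

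Secretory pathway genes were among the lower ones within the stress lists. Of 25 genes of the unfolded protein and integrated stress responses, 2 were 2-fold higher and 5 lower, with a median of 0.03, which became -0.04 with median scaling and -0.13 with upper-quartile scaling. The 5 lower ones are chaperones and foldases of the endoplasmic reticulum: SDF2L1 stood at 38.8 and 8.94 FPKM, PDIA4 at 195 and 54.7 (-1.81), HSP90B1 at 615 and 278, CRELD2 at 22.7 and 9.35, and MANF, named after its values were seen, at 187 and 91.1. The 2 higher ones were PPP1R15A, which restarts translation after stress, at 53.6 and 121 FPKM, and DDIT4, an inhibitor of mTORC1, at 19.5 and 50.2. Cytosolic heat shock genes were not past 2-fold in either direction (0 of 16); their median of 0.02 was -0.04 with median scaling, -0.13 with upper-quartile scaling and 0.55 with quantile normalization.

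Collagen genes other than COL11A1 leaned higher. Of 29 collagen genes listed, 15 reached the minimum level. Of these, 2 (13.3%) were 2-fold higher, against 7.81% of all genes, and 0 lower. The list median was 0.57, or 0.42 with no filter and 0.35 with a pseudocount of 5 FPKM. With the trend taken out 4 were higher and the median was 0.64. COL5A2, a chain of type V collagen that forms mixed fibrils with type XI, stood at 10.5 FPKM in OVCAR3-GFP and 36.1 in OVCAR3-COL11A1 (1.69), and the locus holds MIR3129. COL1A2, a chain of type I collagen, stood at 0.0230 and 2.15 FPKM (1.62), and COL1A1 at 4.30 and 6.86 (0.57). COL1A2 reached the minimum level only through OVCAR3-COL11A1, and its difference was 0.51 with a pseudocount of 5 FPKM. The fibroblast markers were read beside these, COL1A1 and COL1A2 among them. In OVCAR3-COL11A1 10 of 10 were higher, against 55.3% of all genes measured. However, 8 of the 10 did not reach the minimum level, and 3 were under 0.1 FPKM in both libraries. POSTN was at 0.001 and 0.634 FPKM, DCN at 0.001 and 0.202, LUM at 0.001 and 0.0713 and PDGFRB at 0.0326 and 0.0495. The part of these markers in the collagen values was not tested. The enzymes that fold and crosslink collagen did not follow the chains. Of 21 measured, 2 (9.52%) were 2-fold higher and 5 (23.8%) lower, against 7.81% and 4.50% of all genes. The higher ones were LEPREL1 (3.16 and 11.4 FPKM) and LOX (1.02 and 3.88). Among the lower ones P4HB, the beta subunit of prolyl hydroxylase, was at 441 and 188. The median of the 21 was -0.38, and with the trend taken out 1 was higher and 3 lower, with a median of -0.16. Among 25 collagen receptors, integrins and laminins the median was -0.05, with ITGA1, a collagen-binding integrin whose locus holds PELO, at 4.13 and 15.7 FPKM and ITGA3, a laminin-binding one, at 29.6 and 13.1.

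Interferon-stimulated genes went opposite to the NF-kB list in their median. Of 28 measured, 3 were 2-fold higher and 7 lower, with a median of -0.35. With the trend taken out 1 was higher and 4 lower, with a median of -0.36. IFITM1 stood at 10.4 and 3.18 FPKM (-1.44), IFI6 at 12.4 and 4.52, IFI44 at 3.77 and 1.16 and BST2, tetherin, at 4.87 and 1.85. GBP1, a guanylate-binding protein, was higher at 4.01 and 17.4 FPKM (1.88), as was DDX58, the RNA sensor RIG-I, at 6.65 and 17.2 (1.25). Of the interferon gene promoters 16 of 21 held the interferon-stimulated response element, against 3.65% of all promoters. Antigen presentation genes had a median of 0.11 (-0.02 with quantile normalization, -0.04 with upper-quartile scaling); the peptide transporter gene TAP1 stood at 7.34 and 22.1 FPKM and HLA-E at 53.5 and 25.8.

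The A2780 libraries were set beside these values. A2780-COL11A1 against A2780 scrambled shRNA had far fewer genes past the mark, 116 of 11800 (0.983%) higher and 246 (2.08%) lower, while A2780CIS against the same control had 9.58% higher and 10.5% lower. The latter pairs share a control, and neither shares a library with OVCAR3. Over the 10511 genes measured in both overexpression pairs, the differences had a Pearson r of -0.05 and a Spearman rho of -0.02 across genes, which are not independent replicates. Of these 10511 genes, 664 were 2-fold higher and 452 lower in OVCAR3, and 82 were higher and 169 lower in A2780-COL11A1. Of the 664, 15 (2.26%) were also 2-fold higher in A2780, where they made up 18.3% of the 82, and 14 were 2-fold lower there. Of the 452, 14 (3.10%) were also lower in A2780 (8.28% of the 169) and 15 were higher there. With A2780CIS the r was 0.06 and the rho 0.08 over 10712 genes.

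Genes 2-fold higher in both overexpression pairs included NFKBIA, CD69, CYR61, CXCL10, FN1, IL32, HNRPLL, ATF3, NR1D2, PPP1R15A and ARRDC4. Of these, CD69, CXCL10, FN1 and IL32 reached the minimum level in OVCAR3 only through OVCAR3-COL11A1. In the A2780 pair CD69, CXCL10 and FN1 likewise reached it only through A2780-COL11A1, so their place here is read with that in mind. NFKBIA stood at 22.5 FPKM in A2780 scrambled shRNA and 56.6 in A2780-COL11A1 (1.29), beside the 4.03-fold ratio in OVCAR3. CYR61 was at 9.88 and 25.7 FPKM in that pair, and FN1 at 0.376 and 3.82. Among those lower in both were the lactate exporter SLC16A3, TST, MAT2A, VAV3, the glycolytic regulator PFKFB4 and the adenosine receptor ADORA1. The medians of whole lists mostly parted: the NF-kB list was at 0.12 in A2780-COL11A1 and 0.05 in A2780CIS, chemokines at 0.16 and 0.00, clock genes at -0.07 and 0.09, tubulins at -0.02 and 0.01 and ribosomal protein genes at 0.03 and 0.18. Glycolysis was below 0 in all 3 pairs, at -0.72, -0.49 and -1.07. COL11A1 itself was at 4.23 FPKM in A2780 scrambled shRNA, 8.17 in A2780-COL11A1 and 297 in A2780CIS, so OVCAR3-COL11A1 at 1.67 FPKM lay below even the A2780 control.

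**Figure D5:**
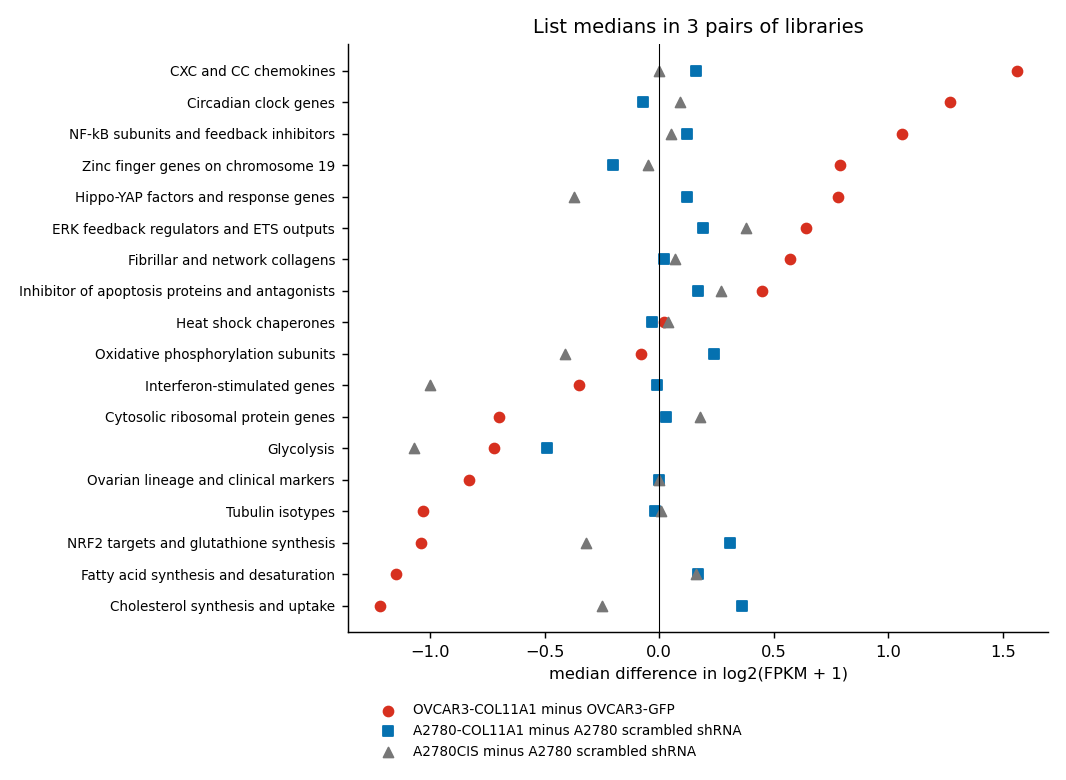
Median difference in log2(FPKM + 1) of 18 gene lists in OVCAR3-COL11A1 against OVCAR3-GFP (circles), and in A2780-COL11A1 (squares) and A2780CIS (triangles) against A2780 scrambled shRNA, 1 library per arm; the A2780 pairs share their control. Cholesterol synthesis lies at -1.22 in OVCAR3, 0.36 in A2780-COL11A1 and -0.25 in A2780CIS, and NF-kB genes at 1.06, 0.12 and 0.05.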

How the data were processed

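Poly-A RNA was made into stranded libraries and sequenced as single-end reads of 75 bases, per the labels' protocols. The authors deposited FPKM values for 6 libraries in a filtered table (filter not stated), in a layout of the Cufflinks type per the file headers. Because some cells held words, this unit was recorded as other. The submitters' processing notes name STAR 2.5.0, RSEM 1.2.25 and GRCh38, while the loci are those of GRCh37; which program made the values is unsettled. Of 25275 entries, those on other contigs (1304), marked as unusable in every library (238) or in some (2), or named as dates (28), and names with several loci (259), were left out. Counts and absolute depth were not used, so no interval was computed.

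Differences in log2(FPKM + 1), pseudocount 1, were taken with pandas 2.3.3 and numpy 2.4.6 and drawn with matplotlib 3.10.9. The arithmetic of the difference and of the 2-fold call was checked on simulated pairs with planted shifts and no noise. The other steps were not tested in this way. With 1 library per arm no test was possible, and grouping followed the labels. Lists (45, and 7 chosen after values were seen) and members were chosen with earlier results of these data known. Named were the 15 highest and 15 lowest genes of at least 5 FPKM in the higher library without overlapping loci, small RNAs, pseudogenes, antisense genes and unnamed loci left out, up to 6 genes per list by size of difference, COL11A1 and the NF-kB subunits; exceptions are said in place, and a few genes that meet the rule are not reported here. Read assignment between overlapping loci is uncertain (2957 genes). RefSeq promoters matched 9736 genes, and transcript length and GC, from the longest GENCODE transcript, 97.5%. Alternatives were other pseudocounts, filters, scalings, overlapping loci left out and, added after the data were seen, the GC and length trend removed.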

Additional observations from a re-analysis of the deposited data

Results flagged for a closer look

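Several values stood in opposite directions in the 2 overexpression pairs. Each is given as the difference in log2(FPKM + 1) in OVCAR3-COL11A1 and then in A2780-COL11A1, each against its own control with 1 library per arm, and the difference between the pairs was not tested for any of them. The A2780 control carries a scrambled shRNA, so construct type and COL11A1 cannot be told apart there.

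The median of the cholesterol synthesis and uptake list was -1.22 in OVCAR3 and 0.36 in A2780. Within it IDI1, an isomerase of the mevalonate pathway, stood at -1.41 and 1.04, and HSD17B7, a sterol reductase, at -1.07 and 1.05. The median of the NRF2 target and glutathione list was -1.04 and 0.31. ADAMTS1, a matrix protease gene, was at -1.12 and 1.66, the immediate early gene EGR1 at -1.17 and 1.16, and WIPI1, an autophagy gene whose locus overlaps another, at -2.53 and 1.13.

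In the other order, TNIP3, a partner of A20, was at 1.50 and -1.08, and the zinc finger genes ZNF790, ZNF420 and ZSCAN21 were at 2.10, 1.71 and 1.29 in OVCAR3 and at -1.02, -1.25 and -1.12 in A2780. TNIP3 was low in the lower library of each pair, at 0.271 FPKM in OVCAR3-GFP and 0.410 in A2780-COL11A1. The loci of ZNF790 and ZSCAN21 overlap others, as does that of IDI1, so their values are uncertain. SNORD59B, a small nucleolar RNA gene that a poly-A library reads poorly and whose locus overlaps ATP5B, was at -7.21 and 6.74.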

How the results depend on the processing

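The counts of 955 genes higher and 550 lower moved beyond 1.5 times with a pseudocount of 5 FPKM, which gave 319 and 210 because it shrinks the differences of low genes. With a pseudocount of 0.1 they were 1420 and 803, with no filter 980 and 562, with a mean of at least 5 FPKM 648 and 400, with median scaling 848 and 630, with quantile normalization 741 and 678, with upper-quartile scaling 680 and 785, with overlapping loci left out 741 and 416, and with the length and GC trend removed 809 and 391. Chromosomes whose median lay at least 0.25 from that of all genes numbered 0 with the values as deposited, 2 with a pseudocount of 0.1, 1 with quantile normalization and 1 with upper-quartile scaling. The median of the keratin list reversed from -0.73 to 0.13 with overlapping loci left out, because KRT8 and KRT18 overlap. The median of the NF-kB list ranged from 0.60 to 1.18 over the alternatives, that of clock genes from 1.12 to 1.38 and that of cholesterol synthesis from -1.37 to -1.15. Other lists moved more: chemokines from 0.56 to 3.02, aryl hydrocarbon receptor genes from 0.82 to 1.76, ribosomal protein genes from -0.86 to -0.18, translation factors from -0.78 to -0.20 and tubulins from -1.46 to -0.67.

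No paired analysis was possible because each construct was sequenced once and no test was made. Leaving out a replicate was not possible either. OVCAR3-COL11A1 had 0.439 of the depth of OVCAR3-GFP, so values near 1 FPKM are the least precise, and culture, transfection and library cannot be told apart from COL11A1.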

Other observations

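Genes of the aryl hydrocarbon receptor, a sensor of small aromatic molecules, were higher in OVCAR3-COL11A1; the list was put together after the values were seen. Of 6 measured, 5 were 2-fold higher and 0 lower, with a median of 1.39 (1.38 with the GC and length trend taken out). CYP1A1, its classical target, stood at 2.94 FPKM in OVCAR3-GFP and 29.0 in OVCAR3-COL11A1 (2.93), TIPARP at 14.5 and 57.7, the repressor gene AHRR at 0.997 and 4.95, CYP1B1 at 1.85 and 5.54 and the receptor gene AHR at 8.76 and 20.8. The partner gene ARNT was at 8.43 and 8.50 FPKM. AHRR and TIPARP overlap other loci.

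Receptor tyrosine kinases of the ERBB family parted from each other. EGFR stood at 11.1 and 25.4 FPKM (1.12) and its family's ligand gene NRG1 at 4.60 and 12.3 (1.25), while ERBB2 was at 10.5 and 4.06 (-1.18) and ERBB3 at 11.9 and 3.72 (-1.45). Over the 21 receptors and ligands the median was 0.08, that of all genes, and it became -0.03 with quantile normalization and with upper-quartile scaling. Among p53 targets PMAIP1, which encodes the cell death protein NOXA, was at 14.7 and 47.6 FPKM, RRM2B at 16.6 and 46.4 and SFN, 14-3-3 sigma, at 4.68 and 0.368, with a list median of -0.14.

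The splicing kinase gene CLK4 stood at 7.43 and 34.2 FPKM (2.06), while the other 14 genes of the kinase and SR protein list lay within 2-fold; the list median of 0.32 was 0.00 with the trend taken out. The most extreme values of the whole table were those of short RNAs. VTRNA1-1, a vault RNA gene, was listed at 0.001 FPKM in OVCAR3-GFP and at 59.6 in OVCAR3-COL11A1, and MIR3653 at 0.001 and 38.8. SNAR-G1 was at 39.2 FPKM and listed at 0.001. Differences were spread over the genome: chromosome medians ran from -0.16 on chromosome 22 to 0.32 on chromosome 4, and of 234 windows of 10 megabases with at least 20 genes, with medians from -0.48 to 0.73, 0 reached 2-fold.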
